A study of Rattus norvegicus with 8 samples.

Results

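The AMPA and kainate receptor subunits are the 9 genes Gria1 to Gria4 and Grik1 to Grik5, which were taken by gene symbol from a table of transcript 3′ ends in the rat hypothalamus. All 9 were measured, out of 18003 gene symbols in all, and together they carried 190 of the 98356 polyadenylation (APA) sites, 101 in the AMPA subunits and 89 in the kainate subunits. The libraries came from the hypothalamus of adult Long-Evans rats, 1 dissected hypothalamus per rat, by WTTS-Seq, a method that sequences the 3′ termini of polyadenylated transcripts. Of the 8 rats, 4 received a single short exposure to vaporized cannabis plant matter (the MJ rats of the labels, called cannabis-exposed here) and 4 received air in the same way (air-treated controls). Tissue was taken about an hour after exposure, and by the study's methods all rats were male. The comparison of these groups asks whether a single cannabis exposure went with a different level or a different 3′ end use of these genes.

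AMPA receptors are tetramers of the subunits GluA1 to GluA4, encoded by Gria1 to Gria4, and carry most of the fast excitatory current at glutamate synapses. The GluA2 subunit, whose pore codon is changed by RNA editing, makes the channel nearly impermeable to calcium. Kainate receptors are built from the low-affinity subunits GluK1 to GluK3 (Grik1 to Grik3), which form channels on their own, and the high-affinity subunits GluK4 and GluK5 (Grik4 and Grik5), which need a partner of the first group, and they act both behind the synapse and on transmitter release. In the hypothalamus, glutamate acting on these receptors drives neurons that control feeding, hormone release and arousal. Alternative polyadenylation gives transcripts of 1 gene different 3′ ends, and ends inside an intron can cut the transcript short.

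The libraries held between 1159811 and 3706778 reads on sites, and 1 read was worth between 0.664 and 1.99 normalized counts. A normalized count is the number of reads at a site divided by the library's size factor, and because each transcript is read at its 3′ end the counts were compared between genes without scaling to length. The marker lists of neurons, astrocytes, oligodendrocytes, oligodendrocyte precursors and microglia overlapped between the groups, the neuronal sum of 8 of 8 listed genes running from 3131 to 3691 in controls and from 2966 to 3574 in cannabis-exposed rats. The hypothalamic list was present in every library, with all 8 of its genes measured. Its sum was higher in cannabis-exposed rats, at 7358 to 9364 against 3188 to 5569, with 2 of the 8 higher at P under 0.01. Each list is a plain sum, so its most abundant genes weigh most, and the sum need not hold for every gene. The study reported more reads after cannabis at sites of Avp and Oxt, both on this list. The list of midbrain dopamine neurons, with all 6 genes measured, was lower, at 231 to 399 against 770.9 to 1000.04, with 4 of the 6 lower at P under 0.01. Smaller differences with no overlap were seen for endothelium (3 of 3 measured, 93.0 to 115 in cannabis-exposed rats against 81.1 to 88.0) and thalamus (2 of 3 measured, 158 to 196 against 129 to 147). The part of these tissue differences in the results on the receptor subunits was not tested. In bulk tissue, fewer cells of a type and less RNA per cell cannot be told apart. The air control 4 and cannabis 1 libraries stood apart by their share of sites without a read, 26.1% and 17.0% against 3.32% to 10.3% in the other 6 libraries.

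None of the 9 subunit genes passed the test between cannabis-exposed rats and air-treated controls by gene total, the sum of all sites of a symbol. At P under 0.01 in limma the count was 0 of 9, beside 50 of all 18003 symbols (0.278%), and it was again 0 of 9 at P under 0.05, which 433 of all symbols (2.41%) passed. At an adjusted P under 0.1, 1 symbol of all passed (0.00555%) and no subunit did. The adjusted P was 0.999 for each subunit, and for all 9 the ranges of the groups overlapped, where 1.98% of all symbols had groups that did not overlap. The median log2 fold change over the 9 was 0.081, beside 0.053 over all symbols, with 6 above 0 and 3 below.

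**Figure D1:**
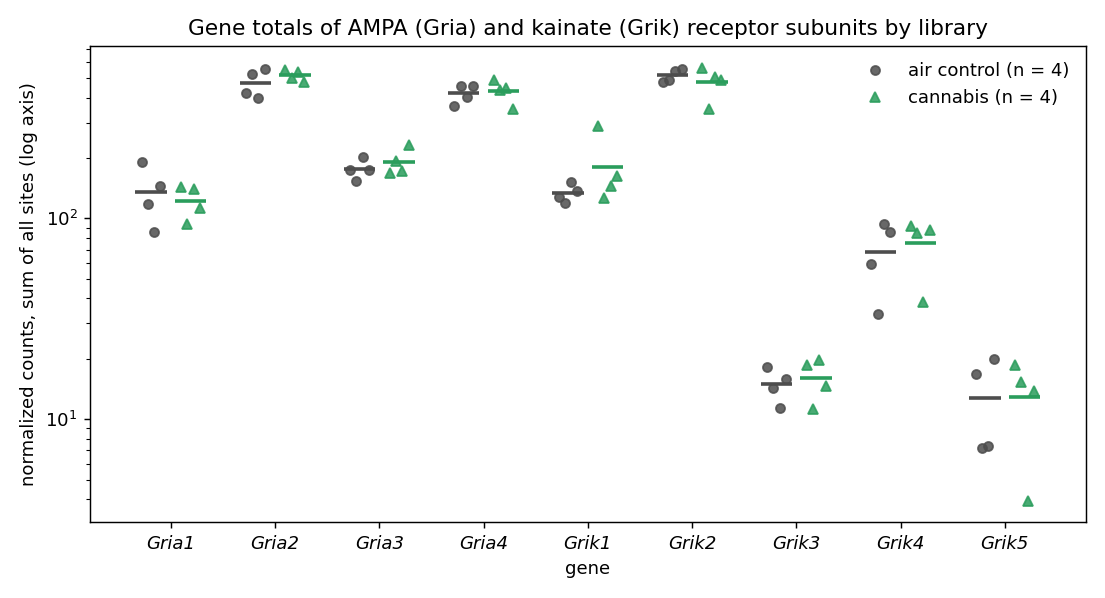
Gene totals of the 9 subunits in each library, as normalized counts on a log axis, for 4 air-treated controls (circles) and 4 cannabis-exposed rats (triangles), with horizontal lines at the group means. The groups overlap for every gene, and the levels span from about 13 for Grik5 to about 516 for Grik2.

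Among the AMPA subunits, Gria2, the gene of the subunit that limits calcium entry, had the highest level. Its totals were 423, 524, 399 and 552 normalized counts in air controls 1 to 4 and 550.1, 503, 534 and 479 in cannabis 1, 2, 3 and 5. All 4 exposed rats lay inside the control range, and the log2 fold change was 0.13 (95% interval −0.27 to 0.53). Gria4, a subunit with fast kinetics, stood at 364, 456, 401 and 455 in controls and 488, 436, 447 and 353 in exposed rats. The highest and the lowest of these 8 values both belonged to exposed rats, and the log2 fold change was 0.04 (−0.37 to 0.44). Gria3 gave 173, 153, 201.4 and 175 in controls and 169, 193, 172 and 231 in exposed rats, a log2 fold change of 0.12 (−0.31 to 0.55). Cannabis 5 alone lay above the highest control. Gria1, the subunit best known for its activity-dependent insertion at synapses, gave 190.1, 119, 85.3 and 145 in controls and 143, 93.7, 141 and 112 in exposed rats. Its controls alone spanned the whole range of the 8 libraries, and the log2 fold change was −0.10 (−0.67 to 0.48).

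Among the kainate subunits, Grik2, whose product GluK2 also undergoes RNA editing in its pore, had the highest level of all 9 genes in controls. It gave 478, 490, 543 and 554 in controls and 564, 349, 508 and 486 in exposed rats, a log2 fold change of −0.13 (−0.56 to 0.29). Cannabis 1 was the highest and cannabis 2 the lowest of the 8. Grik1, which encodes GluK1, gave 128, 119.7, 151 and 137 in controls and 288, 127, 146 and 163 in exposed rats. The mean was 134 ± 13.4 (SD, n = 4) in controls and 181 ± 73.0 in exposed rats, and the log2 fold change of 0.36 (−0.19 to 0.91) rested in part on cannabis 1, since it was 0.11 without that rat. Grik4 stood at 59.2, 33.5, 94.0 and 85.4 in controls and 91.9, 84.4, 38.4 and 87.6 in exposed rats, and its log2 fold change was 0.17 (−0.61 to 0.96). The lowest library was air control 2 in the one group and cannabis 3 in the other.

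The remaining kainate subunits were near the lower end of what these libraries resolve. Grik3 gave 18.3, 14.4, 11.4 and 15.9 in controls and 18.6, 11.3, 19.7 and 14.6 in exposed rats, from 8 to 25 reads per library, and a log2 fold change of 0.08 (−0.66 to 0.82). Grik5 gave 16.8, 7.18, 7.39 and 19.9 in controls and 18.6, 15.3, 3.94 and 13.8 in exposed rats, from 4 to 23 reads per library, and a log2 fold change of −0.03 (−1.13 to 1.06). For Grik5 the interval held a 2.09-fold higher level and a fall to 0.458 of the control level, so that differences of this size were not excluded. For Gria2, by contrast, the interval ran from 0.830 to 1.45 of the control level.

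**Figure D2:**
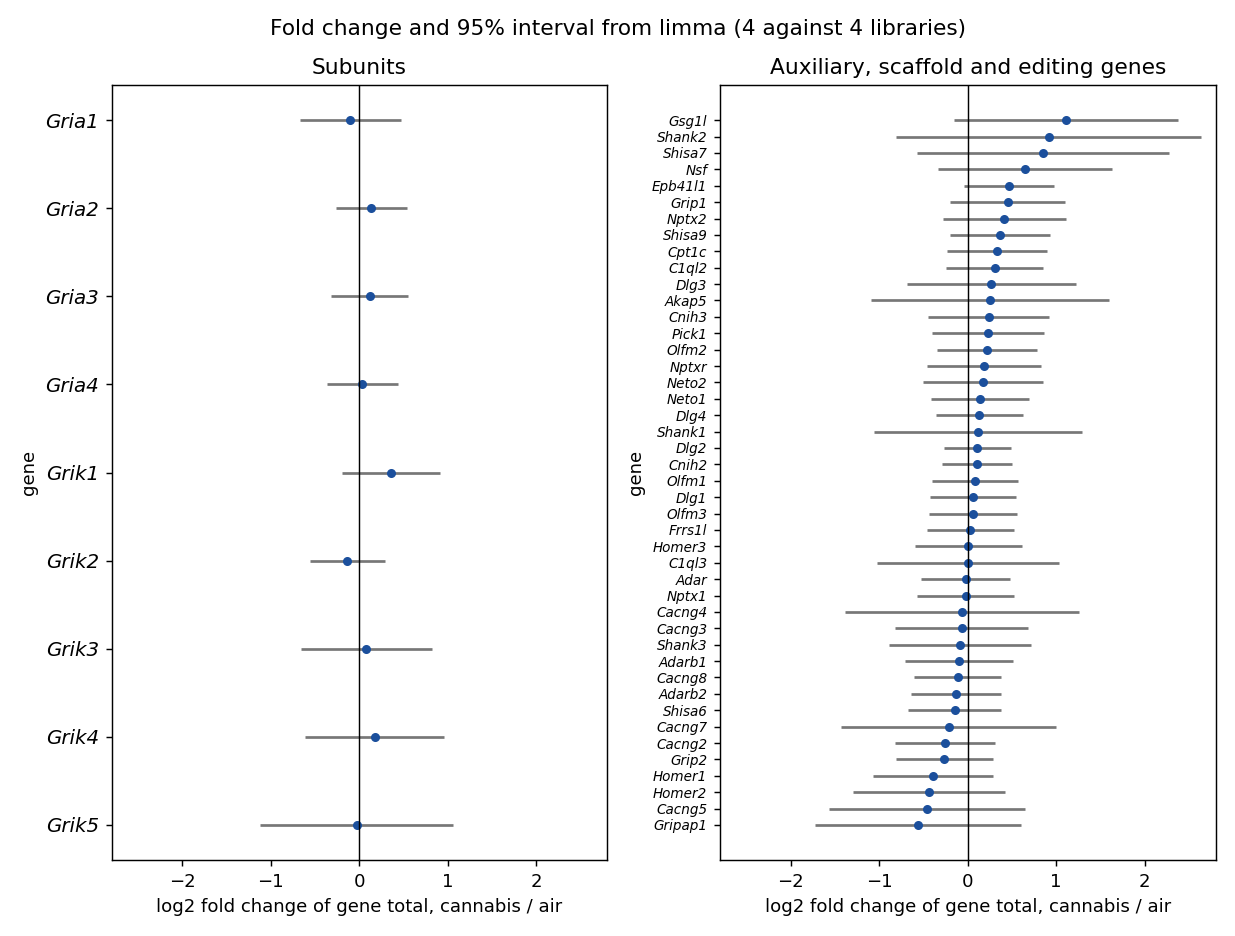
Log2 fold change of the gene total (points) and its 95% interval from limma (lines) for the 9 subunits on the left and 44 auxiliary, scaffold and editing genes on the right, ordered by fold change. Every interval includes 0, and among the subunits that of Grik5 is the widest.

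By level in air-treated controls the order was Grik2 (516 ± 38.0), Gria2 (475 ± 74.9), Gria4 (419 ± 44.7), Gria3 (176 ± 19.8), Gria1 (135 ± 44.3), Grik1 (134 ± 13.4), Grik4 (68.0 ± 27.4), Grik3 (14.99 ± 2.87) and Grik5 (12.8 ± 6.50), as mean normalized counts with the SD over 4 rats. Control ranges of neighbours in this order were separate at 3 steps, from Gria4 to Gria3, from Grik1 to Grik4 and from Grik4 to Grik3, and at each of these steps all 8 libraries kept the order. At the other steps the control ranges overlapped. Within libraries, Gria2 exceeded Gria4 in 7 of 8, and Gria3 exceeded Gria1 in 7 of 8. Grik2 exceeded Gria2 in 5 of 8, Grik3 exceeded Grik5 in 5 of 8, and Gria1 exceeded Grik1 in only 2 of 8. Among all symbols, 3.38% had a higher mean over the 8 libraries than Grik2 and 3.39% than Gria2, whereas 58.6% lay above Grik3 and 62.3% above Grik5.

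Summed over the 4 genes, the AMPA subunits gave 1204 ± 106.4 normalized counts in controls and 1261 ± 76.9 in exposed rats. The 5 kainate subunits gave 746 ± 75.0 and 762 ± 164. The ratio of the sums was 1.63 ± 0.220 and 1.70 ± 0.313, so that the AMPA sum was the larger in both groups. The sums take in every site given these symbols, wherever in the gene it lies. Within the AMPA sum, Gria2 made up 39.2% ± 2.89 in controls and 41.0% ± 0.261 in exposed rats, Gria4 34.8% and 34.1%, Gria3 14.8% and 15.3%, and Gria1 11.2% and 9.66%. None of these 4 shares separated the groups.

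Within the kainate sum, the share of Grik1 was larger in every exposed rat than in any control. It was 18.3%, 18.0%, 18.7% and 16.9% in controls and 29.4%, 21.6%, 20.4% and 21.3% in cannabis 1, 2, 3 and 5. The means were 18.0% ± 0.787 and 23.2% ± 4.18, the latter raised by cannabis 1. Grik1 had 69 to 225 reads per control library and 148 to 232 per exposed library, and the counting error of the shares was not computed. It was the 1 share of the 9 computed in which the groups did not overlap (two-sided exact permutation p = 0.0286, the smallest that 4 against 4 libraries can give, not adjusted for the 9). Such a share has no counterpart over all symbols to set it against, and it also depends on the other members of its sum. Shares of the family sums were not among the planned tests and were not recomputed under the alternatives or with a library left out. Grik2 made up 69.4% ± 2.92 of the kainate sum in controls and 62.9% ± 5.96 in exposed rats, with overlapping groups. Grik4 accounted for 8.92% and 10.1%, Grik3 for 2.04% and 2.12%, and Grik5 for 1.71% in both groups.

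Most of the subunits had many more sites than the median of 2 per symbol. Whether each site is an end of the subunit's own transcripts was not tested. Grik2 had 58 sites and Gria4 had 41, numbers reached by 0.239% and 0.417% of all symbols. Gria1 carried 23, Gria2 22, Grik1 16, Gria3 15, Grik4 9, Grik3 4 and Grik5 2. Most sites were sparsely read, as the median was 30 reads over the 8 libraries (34 over all sites), 33 of the 190 had a mean of at least 10 normalized counts, and 98 (51.6%, against 49.4% of all sites) lacked a read in 1 library or more.

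The genes differed in how their reads were divided. Gria3 used mainly 1 end, which carried 67.5% ± 9.12 of its counts in controls and 72.0% ± 7.71 in exposed rats and ranked first in all 8 libraries. The leading site of Gria2 carried 31.3% ± 3.88 and 38.9% ± 10.4, and a second site of the same gene carried 27.6% and 27.3%. Gria1 and Grik2 were spread widely, with leading sites of 13.0% and 16.7% in controls, and 6 sites were needed in each to hold the larger part of the counts. The leading site of Gria1 ranked first in only 2 of 8 libraries. Grik1 and Grik4 each had a leading site that ranked first in all 8 libraries, at 42.3% and 50.7% in controls and 43.4% and 59.7% in exposed rats. Grik3 had a leading site of 56.5% and 56.3%. For Grik5 the leading site carried 66.5% ± 15.1 and 43.0% ± 33.4, and had no read in cannabis 3.

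**Figure D3:**
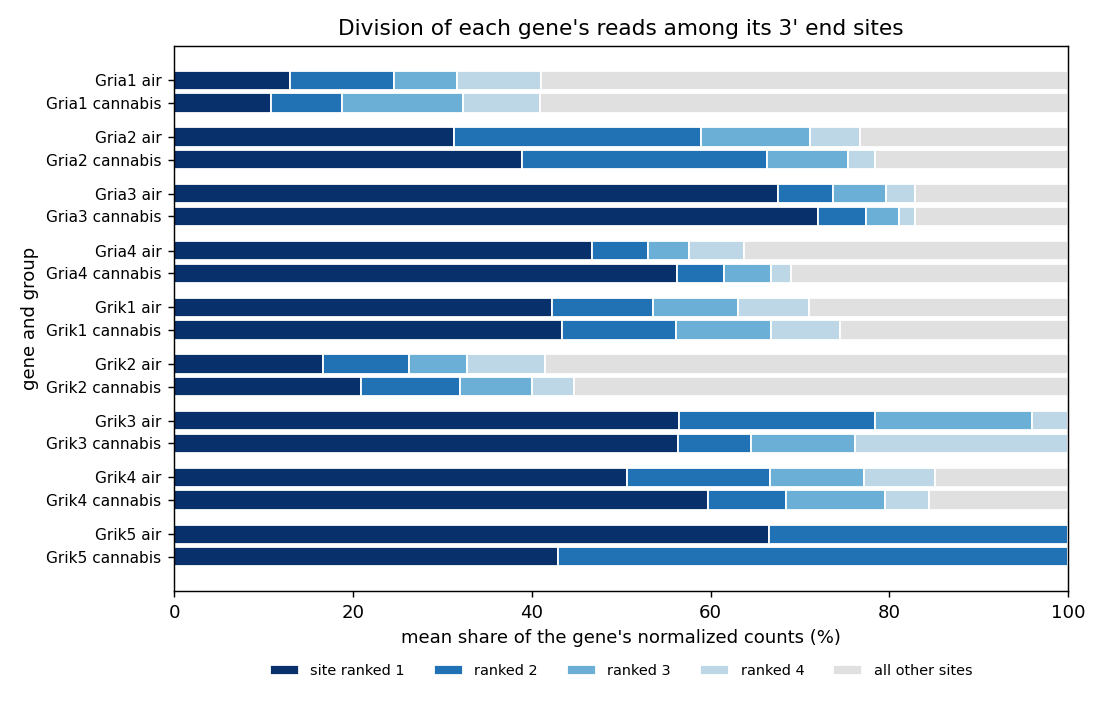
Mean share of each gene's normalized counts, in percent, at its 4 most-read sites (blue shades, ranked over all 8 libraries) and at all other sites (grey), for 4 air-treated controls and 4 cannabis-exposed rats. Gria3 rests on 1 main site, whereas in Gria1 and Grik2 the 4 leading sites together hold less than the remaining sites.

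Of the 190 subunit sites, 1 differed between the groups at P under 0.01, beside 375 of all 98356 (0.381%), and it was lower in cannabis-exposed rats. No subunit site passed an adjusted P of 0.1, which 1 site of all passed (0.00102%). At P under 0.05 there were 6 subunit sites, 5 lower and 1 higher, beside 3.03% of all sites. In 4 sites every exposed rat lay below every control, where 1.01% of all sites did so, and in 0 sites did every exposed rat lie above every control, where 0.992% did. The median log2 fold change of the subunit sites was −0.05 (0.01 over all sites), and 103 of the 190 (54.2%, against 49.1% of all sites) were below 0. By gene this was 27 of 41 sites in Gria4, 36 of 58 in Grik2 and 4 of 16 in Grik1.

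The site that passed was the fourth most-read site of Gria4. It held 24.1, 27.5, 26.2 and 23.8 normalized counts in air controls 1 to 4 and 17.4, 4.65, 3.94 and 12.3 in cannabis 1, 2, 3 and 5. The controls were close to each other and all 4 exposed rats were below them, from 148 reads in all. These were 33, 23, 39 and 12 reads in controls and 14, 7, 4 and 16 in exposed rats. Whether the controls lay closer than the counting of so few reads allows was not tested. The log2 fold change was −1.54 (95% interval −2.56 to −0.51, limma P = 0.0051, adjusted P = 1.0, and two-sided exact permutation p = 0.0286, the smallest that 4 against 4 libraries can give). With the study's annotation, this end lies inside an intron, on the strand opposite to that listed for the most-read site of Gria4, so that its reads need not come from Gria4 transcripts although the files give it that symbol. The call was lost on leaving out air control 1, 2 or 3 or cannabis 2 or 3, with log2 fold changes between −1.56 and −1.24, and in the quasi-likelihood test of edgeR on the recovered reads (−1.40).

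The most-read site of Gria4 had a higher mean in exposed rats, with overlapping groups. It held 156, 224, 193 and 212 normalized counts in controls and 269, 268, 264 and 174 in exposed rats. Of the exposed rats, 3 lay above all controls and cannabis 5 lay among them, and the log2 fold change of 0.30 (−0.29 to 0.89) did not pass the test. As a share of the gene's counts this site gave 43.0%, 49.1%, 48.2% and 46.7% in controls and 55.2%, 61.4%, 59.0% and 49.5% in exposed rats. The groups did not overlap by a narrow margin, with means of 46.8% ± 2.70 and 56.3% ± 5.22 (two-sided exact permutation p = 0.0286, the smallest possible). The gene's counts in this share include the intronic site on the opposite strand. A fall of that site raises the share, and the share without it was not computed. On the log scale, the share fit of limma gave 0.55 (P = 0.216, adjusted P = 1.0, against the permutation test on percentages above).

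The share fit compared each site with all other sites of its gene, over 57287 sites of symbols with at least 2 sites. Of the 190 subunit sites 1 had P under 0.01 (0.389% of all sites), and none passed an adjusted P of 0.1 (0% of all sites). It was the same intronic Gria4 site, at 6.63%, 6.04%, 6.53% and 5.24% of Gria4 counts in controls and 3.56%, 1.07%, 0.881% and 3.49% in exposed rats. The means were 6.11% ± 0.634 and 2.25% ± 1.47, and the log2 fold change of the share was −1.63 (limma P = 0.0096, adjusted P = 1.0, exact permutation p = 0.0286). Since the share and the level are taken from the same reads, they are not separate evidence. The call on the share was lost without any 1 of the controls and without cannabis 2 or cannabis 3, at −1.71 to −1.31. Counted as percentages, 4 subunit sites had a share that was lower in every exposed rat than in any control (1.08% of all sites) and 1 had a share that was higher (1.0%). The latter was the most-read site of Gria4, whose total includes the intronic site.

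**Figure D4:**
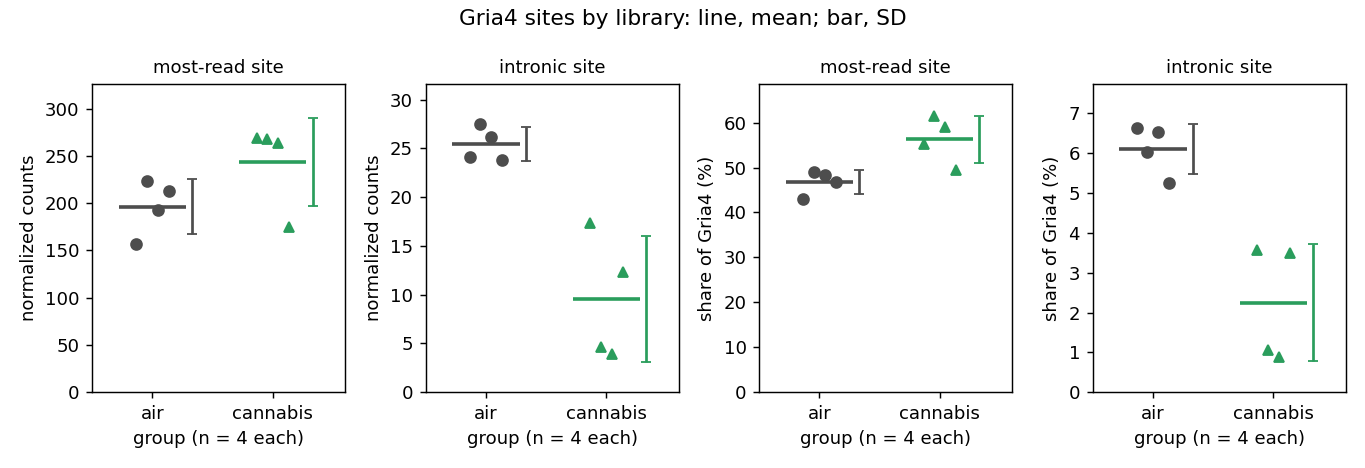
Normalized counts (left pair) and shares of all Gria4 counts in percent (right pair) of the most-read Gria4 site and of the intronic Gria4 site in each library, with the group mean (line) and SD (bar), 4 libraries per group. The intronic site is lower in all 4 exposed rats by both measures, and the most-read site overlaps between the groups in counts but not in share. The Gria4 counts that the shares are taken of include the intronic site.

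Outside Gria4 no site reached P under 0.01 in the main fits. The fourth most-read site of Grik2 held 54.1, 49.1, 41.6 and 31.8 normalized counts in controls and 12.4, 12.6, 39.4 and 23.8 in exposed rats. Cannabis 3 lay inside the control range, and the log2 fold change was −1.10 (−2.01 to −0.18, limma P = 0.021, adjusted P = 1.0, exact permutation p = 0.0571). This site is named for its P after its values were seen, as are the other 4 under the wider threshold. These were 2 further sites of Grik2 and 1 of Gria3, all lower, and 1 of Grik3, higher, with 19 to 71 reads each. Of the most-read sites, that of Gria2 had a log2 fold change of 0.41 (−0.22 to 1.04), Gria3 0.21 (−0.44 to 0.87), Grik2 0.23 (−0.52 to 0.98), Grik1 0.38 (−0.54 to 1.30) and Grik4 0.42 (−0.68 to 1.53). Those of Gria1, Grik3 and Grik5 gave −0.09, 0.07 and −0.67, and none of these 8 passed the test.

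**Figure D5:**
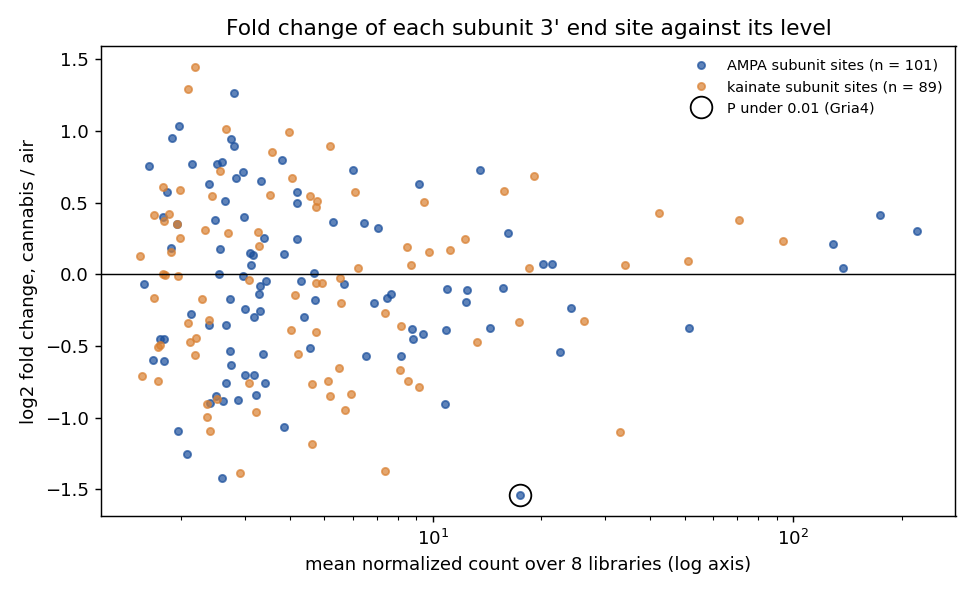
Log2 fold change of each of the 190 subunit sites against its mean normalized count over 8 libraries (log axis), for 101 AMPA (blue) and 89 kainate (orange) sites. The spread widens at low counts, and the circled Gria4 site has the largest fall among all 190 sites.

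Genes that act on these receptors were read in the same fit. The list held 45 genes, namely the TARP, cornichon, Shisa, Gsg1l, Neto and other auxiliary proteins, secreted organisers such as the neuronal pentraxins and olfactomedins, scaffolds of the Dlg, Grip, Homer and Shank families, and the RNA editing enzymes. All 45 were measured and 0 passed P under 0.01, or P under 0.05, in limma, where 0.278% and 2.41% of all symbols passed. Of the 45, 28 had a log2 fold change above 0 and 17 below, and the median was 0.083 (0.053 over all symbols).

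By mean level the leading genes of the list were Epb41l1, Dlg2 and Cnih2. Epb41l1, which encodes the AMPA receptor binding protein 4.1N, held 570.2, 603, 785 and 610 normalized counts in controls and 1013, 998, 552 and 1081 in exposed rats. Of these rats, 3 lay above all controls and cannabis 3 lay below them all, for a log2 fold change of 0.47 (−0.04 to 0.97, exact permutation p = 0.143). Dlg2, which encodes the synaptic scaffold PSD-93 and had 115 sites, averaged 715 ± 65.5 and 769 ± 51.2, a log2 fold change of 0.11 (−0.27 to 0.48). Cnih2, a cornichon that slows AMPA receptor closing, averaged 596 ± 49.5 and 642 ± 84.1, a log2 fold change of 0.10 (−0.29 to 0.50). Of the editing enzymes, Adarb1, which edits the pore codon of Gria2, averaged 281 ± 90.7 and 256 ± 58.5, and Adar averaged 414 ± 111 and 404 ± 87.9. The kainate receptor partners Neto1 and Neto2 stood at 58.2 and 25.7 in controls and 63.9 and 29.0 in exposed rats.

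The levels of the subunits were also set beside each other over the 8 libraries, as a description that shares depth and tissue content between its points. Across all gene pairs, Pearson correlations of log2 gene totals ran from −0.67 for Gria3 with Gria4 to 0.88 for Gria1 with Grik3, and Gria2 with Gria4 gave 0.74. The lowest and highest are the extremes of all pairs, and Grik3 had only 8 to 25 reads per library. Of 6097 symbols with a mean total of at least 50 normalized counts, those most like the AMPA sum over 8 libraries were Ap4b1 (r = 0.952), Ranbp10 (0.941) and Uchl1 (0.937). Those most like the kainate sum were Luc7l3 (r = 0.976), Ebf4 (0.952) and Map7d2 (0.945). These are the highest of 6097 correlations for each sum, each over only 8 libraries. How high such a search reaches without any link was not tested.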

How the data were processed

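The authors trimmed and filtered the reads, mapped them to the rat build Rnor_6.0, which the submitters' processing notes name, merged 3′ ends into sites, kept sites with a minimum number of reads and assigned gene symbols. The deposited values are a signal, reads divided by the size factors of DESeq2, with 1 file per library and 98356 sites in each. The files give no coordinates. Dividing by the smallest step gave whole reads for 100% of values in each library, within 0.01 reads. Sites without a symbol, 34043 with 13.9% of reads, stayed in the site test and out of gene totals.

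Groups and replicate numbers were taken from the labels. Each library is 1 rat. Sites, gene totals and site shares were tested over all features with limma 3.58.1 (trend, R 4.3.3) on log2(value + 1), shares as log2 of the site against the rest of its gene, at P of 0.01 and Benjamini-Hochberg adjusted P of 0.1. Fold changes are on this scale, which understates the change of low values. Exact permutation tests were two-sided. Fits were tested on simulated data first. The alternatives were a pseudocount of 0.5 or 5, a mean of at least 10, equal library totals, a replicate block, each library left out, edgeR 4.0.16, DESeq2 1.42.0, and, chosen after seeing the data, leaving out both libraries with the most empty sites. The count tests used recovered reads and called 517 (edgeR) and 310 (DESeq2) of all sites at P of 0.01, against 375 in limma, and 54, 76 and 50 gene totals. P-values measure the spread between these rats, which limma estimates for each feature with a part taken from the other features. The genes named were all members, their most-read sites, member sites and auxiliary genes at P under 0.01, the 3 auxiliary genes of highest mean, and the 3 symbols most like each sum, and further genes of the list were added after their values were seen. The values of 1 gene of the auxiliary list, which is part of the list's counts, are not reported here. Members and lists were chosen with earlier results of these data known. No sequence is printed, since the files hold none for these ends.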

Additional observations from a re-analysis of the deposited data

Results flagged for a closer look

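Of 38 groups of 4 libraries checked for a library far from the others, 2 stood out, where chance gives about 1 in 20. The Grik4 total in cannabis 3 was 38.4 normalized counts, against 84.4 to 91.9 in the other 3 exposed rats. Without that rat the log2 fold change of Grik4 was 0.47. The most-read Gria4 site in cannabis 5 was 174.4 normalized counts, against 264 to 269 in the other 3, and without that rat its log2 fold change was 0.45.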

How the results depend on the processing

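Of 322 recomputed values for single genes and sites, 283 kept their direction and their side of the threshold, 14 kept the direction and lost the call, and 25 changed sign, with no subunit total passing it under any alternative. The count of subunit sites at P under 0.01, which was 1, became 2 with the replicate block, 0 with edgeR and 2 with both libraries of most empty sites left out, and ran from 0 to 2 on leaving out 1 library (0 without air control 1, 2 or 3, and 2 without air control 4). Where the count was 2, the added site was the same Grik2 site, with 71 reads. A count of 1 was not always the Gria4 site, as it was a Gria3 site without cannabis 2 and a Grik2 site without cannabis 3. For site shares the count of 1 became 0 with a pseudocount of 0.5 and 0 among the 33 sites with a mean of at least 10, and ran from 0 to 1 on leaving out 1 library (0 without air control 1, 2 or 3). In place of the Gria4 site, the share called was that of a Grik2 site without air control 4, a Gria3 site without cannabis 2 and a Grik3 site without cannabis 3. For the auxiliary genes the count of 0 ran from 0 to 1, with Epb41l1 passing without cannabis 3. The cause was not tested.

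The Gria4 total turned to −0.0097 with edgeR and −0.0153 with DESeq2. With the replicate block, the Grik5 total was 0.12, the most-read Gria1 site 0.53 and the most-read Grik3 site −0.10, and the Gria1 site was 0.31 without both libraries of most empty sites. Leaving out 1 library moved the total of Gria1 between −0.30 and 0.085, Gria4 between −0.029 and 0.13, Grik2 between −0.22 and 0.0085, Grik3 between −0.034 and 0.23, Grik4 between −0.12 and 0.47, and Grik5 between −0.25 and 0.41. The most-read site moved between −0.67 and 0.43 in Gria1, −0.044 and 0.78 in Grik1, −0.14 and 0.25 in Grik3, −0.11 and 0.88 in Grik4, and −1.14 and 0.15 in Grik5. Same-numbered rats did not deviate together (r = −0.230, 0.080 and −0.003 over 22164 sites). Between rats of different number r ran from −0.347 to 0.469. With so wide a spread, these values cannot settle whether the numbers mark pairs, and the main fits used no pairing. Depth was lowest for Grik3 (8 to 25 reads per library) and Grik5 (4 to 23).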
